A study of Amphimedon queenslandica with 124 samples.

Results

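The 13 free-swimming larvae of the sponge Amphimedon queenslandica were compared with the 7 late ring embryos, 20 of the 124 single individuals of a developmental series. The stage written in the labels chose the libraries, and all gene models were compared. Each library was made from 1 whole individual with CEL-seq, which tags each individual's polyadenylated RNA with a barcode and reads it from its 3' end. All were animals taken in the wild at Heron Island, Great Barrier Reef, with no treatment, and their form gave the stage. The labels give neither the mother of an individual nor its hours since release, so the p-values measure the spread between these individuals, some of which may be siblings.

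Amphimedon queenslandica broods its embryos in chambers inside the mother. Pigment cells gather during brooding, first as a cloud, then as a spot, then as a ring at the posterior pole, and late ring is the last brooded stage. The released larva swims with cilia, does not feed, and its pigment ring borders the long cilia that steer it away from light. It later settles on a surface and reorganises its body into that of a filter-feeding juvenile. Gene models carry identifiers only, and none of them could be paired with a name, so genes are described by their levels and by their course through development. With no names, the stages could not be checked against marker genes, and no role is given to any gene model.

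The larval libraries held 174505 to 981293 counts (median 653286), against 617279 to 1694159 counts (median 860496) in late ring libraries. The mean log10 total was 5.71 in larvae and 5.94 in late ring embryos (exact permutation test, two-sided, p = 0.05, 0.079 after Benjamini-Hochberg adjustment over 3 such tests). After thinning to 100000 counts, 6846 ± 927 gene models were detected in larvae and 6136 ± 283 in late ring embryos (SD, n = 13 and 7, exact permutation p = 0.0527, adjusted 0.079). Both p-values lay near the threshold. For the totals, leaving out larva 1, 2, 10, 11 or 12 or late ring replicate 4, 5 or 7 gave exact permutation p-values from 0.0324 to 0.0465. These were 8 of the 20 libraries, and with the others the exact permutation p rose to as much as 0.124, without late ring replicate 2. For the gene models detected, leaving out larva 7, 8, 9, 11 or 13 or late ring replicate 6 gave exact permutation p-values from 0.0173 to 0.0485. These were 6 of the 20, and with the others the exact permutation p rose to as much as 0.113, without late ring replicate 7. Larva 7 had 9353 gene models detected and the next highest larva 7541, and without larva 7 the difference was 501. The 10 most abundant gene models took 28.9% ± 4.32 of the counts in larvae and 27.7% ± 3.86 in late ring embryos (exact permutation p = 0.558).

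One late ring library stood apart. Over the 4896 gene models tested, the library labelled late ring replicate 7 had a median Spearman correlation of 0.689 with the larvae and of 0.620 with the other late ring libraries, and its nearest single library was a larva. For the other 6 late ring libraries the median correlation with larvae ran from 0.662 to 0.737 and that with their own stage from 0.753 to 0.817. All 13 larvae were closest to other larvae. Late ring replicate 2 had its highest median correlation, 0.801, with the preceding ring stage. The counts of gene models, the levels and the spread are also given without the library labelled late ring replicate 7, chosen after seeing the data where the spread per gene model is concerned. The closest pairs of libraries were far from identical. Their counts gave a chi-square of 11.8 per degree of freedom among larvae and of 21.9 among late ring embryos, so each library was counted as 1 individual.

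Larvae differed from late ring embryos at 571 of the 4896 gene models tested (11.7%), and losses outnumbered gains. In larvae 414 gene models were lower (8.46% of those tested) and 157 were higher (3.21%; edgeR quasi-likelihood test, Benjamini-Hochberg adjusted p under 0.05). The 414 are called lost below and the 157 gained. This says that their level in larvae, after TMM scaling between libraries, was lower or higher than in late ring embryos. Shares of counts and levels given below are relative to the library total, without that scaling, so they do not match the fold changes exactly. In whole individuals, fewer cells of a type and less RNA per cell cannot be told apart. The median log2 fold change, larvae over late ring, was -1.51 for lost gene models (quartiles -2.19 and -1.13) and 1.41 for gained ones (quartiles 1.12 and 1.88), beside 0.01 over all gene models tested. Of the lost gene models 44 differed at least 8-fold and 23 at least 16-fold, whereas 9 of the gained ones differed at least 8-fold.

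Without the library labelled late ring replicate 7, 5133 gene models were tested and 847 were called (16.5%). Of these 559 were lower in larvae (10.9%) and 288 higher (5.61%). The number of gained gene models leaned on single late ring libraries more than the number of lost ones. It was 78, 84, 79 and 89 without late ring replicates 2, 3, 4 and 5, whereas the number of lost ones stayed between 296 and 559 whichever library was left out, and the total called was 374 without late ring replicate 2. With the library total as a covariate 73 were gained and 232 lost, of 4896 tested. DESeq2 gave 318 and 556 of 8881 tested, and no filter on low counts 178 and 687 of 23405. Libraries of at least 500000 counts gave 90 and 269 of 4784, and thinning all libraries to the lowest total 117 and 220 of 2242. Thinning left 79 of the 157 gained and 284 of the 414 lost gene models among those tested. A single fit of all 14 stages tested 17221 and called 143 gained and 411 lost gene models. It shared only 14 and 145 of them with the comparison of the 2 stages alone.

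The lost gene models together took 8.44% ± 1.16 of the counts in larvae (6.87% to 10.8%) and 23.0% ± 8.87 in late ring embryos (10.1% to 33.4%), or 25.2% ± 7.42 without the library labelled replicate 7 (n = 6). The gained gene models took 2.49% ± 0.332 in larvae (1.99% to 3.08%) and 0.832% ± 0.237 in late ring embryos (0.635% to 1.32%), or 0.751% ± 0.112 without that library. Losses were concentrated among abundant gene models. Of the gene models with a mean of over 500 CPM (the count divided by the library total and multiplied by 1000000) in the higher stage, 27.1% were lost and 3.83% gained, while of those under 50 CPM 1.88% were lost and 2.53% gained. Of the 50 most abundant gene models of late ring embryos 22 were lost and 0 gained, and of the 50 most abundant of larvae 7 were lost and 0 gained (edgeR, adjusted p). The levels that set the bands and the 50 come from the libraries that made the calls. A high late ring level thus favours a loss, and these shares are a description.

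**Figure D1:**
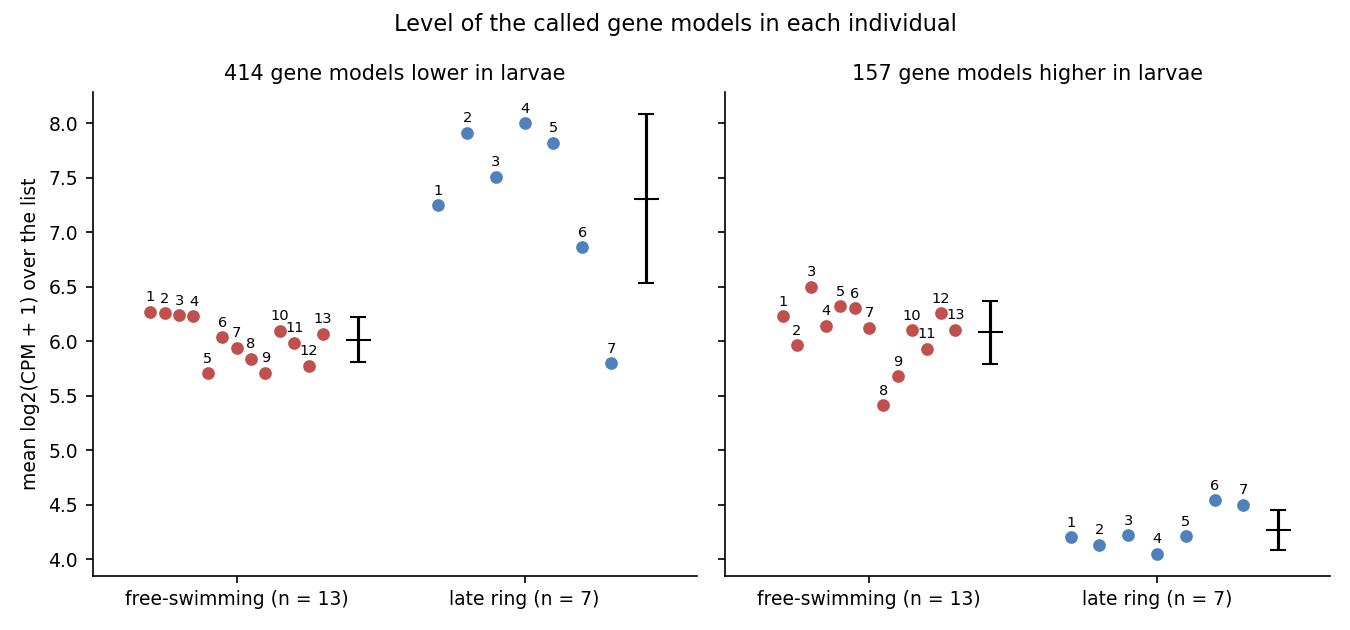
Mean log2(CPM + 1) over the 414 gene models lower in larvae and over the 157 higher in larvae, 1 dot per library, with the replicate number beside it, larvae to the left of late ring embryos and mean ± SD as bars. The 13 larvae lie within 5.71 to 6.28 for the lost gene models, the late ring libraries spread between 5.80 and 8.00, and for the gained gene models all 13 larvae lie above all 7 late ring libraries, which the choice of genes favours.

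The loss was seen as a narrow band in larvae and a wide one in late ring embryos. Over the lost gene models the mean of log2(CPM + 1) was 6.01 ± 0.21 in larvae (SD, n = 13) and 7.31 ± 0.78 in late ring embryos (n = 7). In the late ring libraries it was 7.25, 7.92, 7.51, 8.00, 7.83, 6.86 and 5.80 for replicates 1 to 7. Replicates 1 to 5 lay well above every larva, replicate 6 lay between those 5 and the larvae, and the library labelled replicate 7 lay within the larval range. Without that library the late ring mean was 7.56 ± 0.44 (n = 6). These levels belong to gene models that the same libraries chose, and they are given as a description.

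For the gained gene models all 7 late ring libraries lay below the larvae by their mean level. The same 7 libraries chose these gene models, which favours such low values, so this is a description. The mean of log2(CPM + 1) was 6.08 ± 0.29 in larvae (5.41 to 6.50) and 4.27 ± 0.19 in late ring embryos (4.05 to 4.55). Late ring replicates 6 and 7 had the highest late ring values, 4.55 and 4.50, and both were below the lowest larva. By share of counts the library labelled replicate 7 was the highest late ring library, at 1.32%, and replicate 6 the next, at 0.948%. Without the library labelled replicate 7, 288 gene models were gained, and 133 of the 157 were among them. Larvae 8 and 9 were the lowest larvae, at 5.41 and 5.68, and they also had the fewest gene models detected at 100000 counts, 5593 and 5730. Whether that has a part in their lower values was not tested.

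The steepest loss was that of Aqu2.1.01745_001. It had 32.1 CPM in the lowest larva, 66.3 CPM in the median larva and 100.1 CPM in the highest, against 11.3 CPM in the lowest late ring library, 1616 CPM in the median one and 14410 CPM in the highest. The library labelled late ring replicate 7, at 11.3 CPM, was below every larva, replicate 6, at 74.6 CPM, was within their range, and the other 5 late ring embryos, from 435 CPM upwards, were above all 13 larvae. The log2 fold change was -5.92 (SE 0.73, edgeR adjusted p = 1.55e-05), and -4.58 without late ring replicate 4, the highest. Its mean had been 145 CPM at cleavage, 11164 ± 8950 CPM at the spot stage and 5781 ± 2499 CPM at ring (SD, n = 7 each). At settlement it was 136 ± 115 CPM (n = 7).

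Aqu2.1.02514_001 had nearly the same course. Its level was 8.92 CPM in the lowest larva, 29.3 CPM in the median larva and 147 CPM in the highest, against 16.2 CPM in the lowest late ring library, 1114 CPM in the median one and 6178 CPM in the highest. Late ring replicates 7 and 6, at 16.2 and 37.3 CPM, were within the range of the larvae, while replicates 1 to 5 had 323 CPM or more. The log2 fold change was -5.85 (SE 0.78, edgeR adjusted p = 2.63e-05), and -5.25 without late ring replicate 5. This gene model averaged 141 CPM at cleavage, 6780 ± 2304 CPM at spot and 3813 ± 1673 CPM at ring, then 150 ± 176 CPM at settlement and 331 ± 45.0 CPM in the 3 adults.

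**Figure D2:**
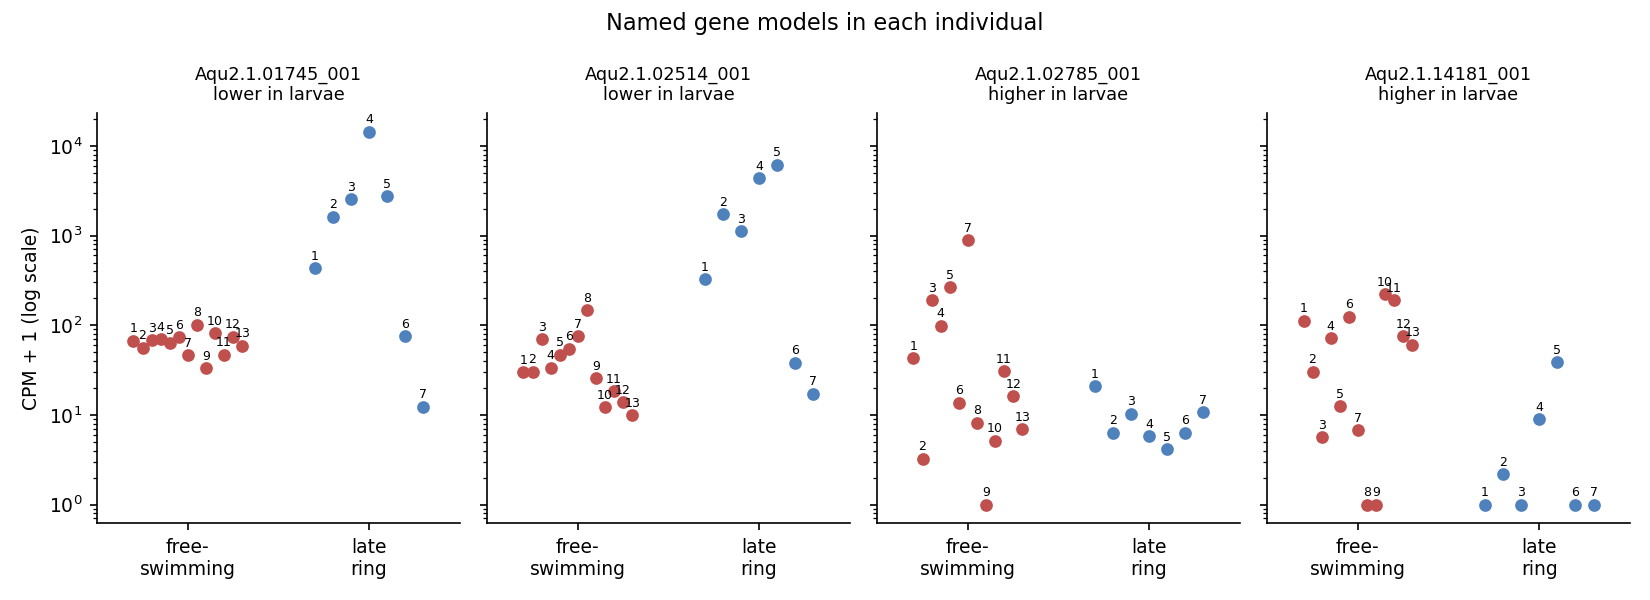
CPM + 1 on a log axis for the 2 gene models with the steepest loss and the 2 with the steepest gain. Each library is 1 dot with its replicate number, and larvae are left of late ring embryos. For both lost gene models late ring replicates 1 to 5 lie above the larvae. Replicate 6 lies within the larval range for both, and replicate 7 lies below all larvae for Aqu2.1.01745_001 and within their range for Aqu2.1.02514_001. For both gained ones larvae are spread from 0 CPM upwards.

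These 2 gene models were the first of the 20 with the steepest loss among those of at least 50 CPM in late ring embryos, whose log2 fold changes ran from 4.31 to 5.92 in size. Together they took 0.0327% to 0.0937% of the counts of a larva. In the late ring libraries they took 0.468%, 1.97%, 1.56%, 6.91%, 3.56%, 0.0881% and 0.206% for replicates 1 to 7. By this share replicate 6 was within the larval range and replicate 7 above it. By the mean of log2(CPM + 1), which weights the 20 equally, larvae ran from 3.13 to 4.54, replicate 6 was above them at 5.03 and replicate 7 within their range at 3.95. Gene by gene, late ring replicates 1 to 5 were within or under the range of the larvae for 3, 4, 3, 2 and 1 of the 20, replicate 6 for 16 and the library labelled replicate 7 for 18. For these 20 gene models, 5 late ring embryos stood well above the larvae and 2 stood mostly among them.

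**Figure D3:**
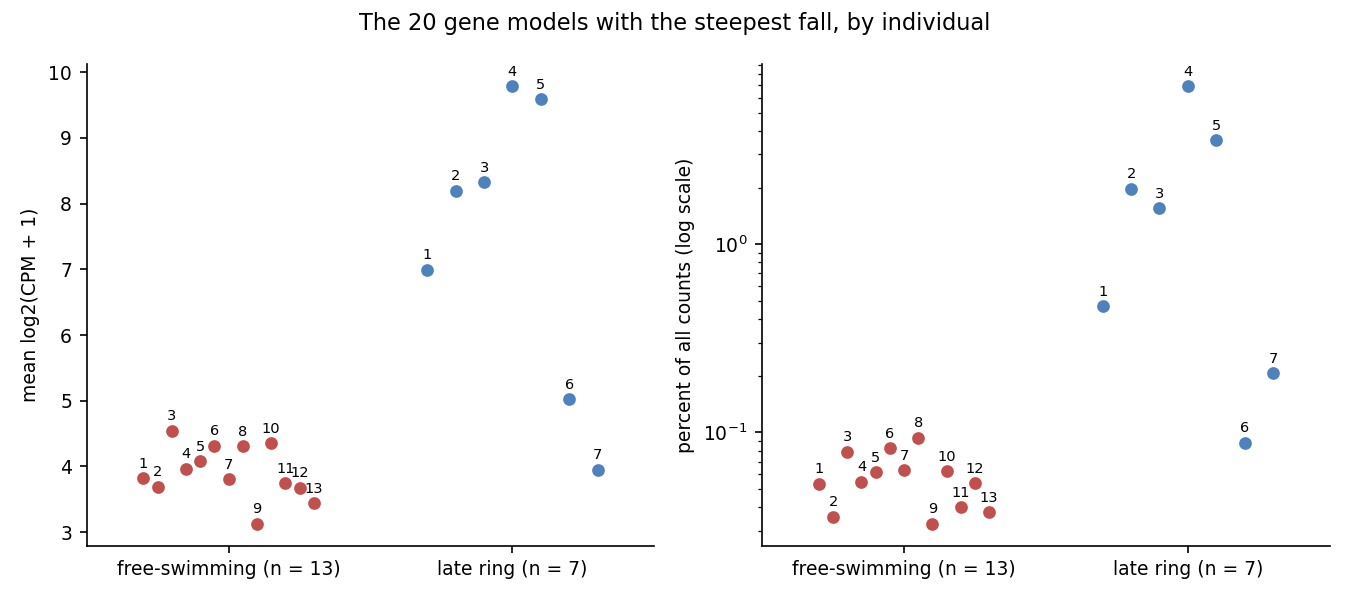
Level of the 20 gene models with the steepest loss in each library, as mean log2(CPM + 1) and as percent of all counts (log axis). Larvae are left of late ring embryos. In both panels late ring replicates 1 to 5 lie above all larvae. Replicate 6 lies above the larvae by the mean and within their range by the percent. Replicate 7 lies within their range by the mean and above it by the percent.

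The 20 gene models had been high from brown to ring. Their mean log2(CPM + 1) was 5.02 at cleavage, 9.18 at brown, 9.78 at cloud, 10.34 at spot, 9.84 at late spot and 9.64 ± 0.41 at ring (SD, n = 7), then 7.41 ± 2.22 at late ring, 3.91 ± 0.40 in larvae (n = 13) and 4.94 at settlement. In the 3 adults it was 4.59. Of the stages before release, cleavage alone had a mean under that of late ring embryos.

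The whole set of lost gene models was also higher from cloud to ring than at cleavage or after release. Its mean log2(CPM + 1) was 5.10 at cleavage, 6.41 at brown, 7.41 at cloud, 7.58 at spot, 7.64 at late spot and 7.74 at ring, where the 7 libraries ran from 7.33 to 7.93. After the larva it was 5.76 ± 0.74 at settlement and 5.49 in the mat stage, then 6.14 in the chamber stage, 6.05 in the tent-pole stage, 6.27 in juveniles and 6.08 in adults. Of the lost gene models 57.7% had their highest mean among the other stages between cloud and ring, compared with 20.1% of all gene models tested. Only 31.2% had it at settlement or later, compared with 57.5% of all tested.

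Comparisons between other stages, which share no library with larvae or late ring embryos, gave the direction of the lost gene models in other individuals. The 3 comparisons share their cloud and ring libraries with each other. Of all gene models tested 42.7% were called between cloud and cleavage, 17.1% between ring and cloud and 28.5% between settlement and ring. Between cloud and cleavage, 241 of the 396 lost gene models tested there were higher at cloud (60.9%) and 46 were lower (11.6%), where 22.8% and 20% of all gene models tested were. Between ring and cloud 132 of 405 were higher at ring (32.6%) and 9 were lower (2.22%), where 8.9% and 8.22% of all were. Between settlement and ring 272 of 407 were lower at settlement (66.8%) and 18 were higher (4.42%), where 18.6% and 9.86% of all were. Settlement libraries carried embryo numbers of 1 to 100 or of 101 to 124, and the lost gene models averaged 5.30 ± 0.61 in 4 of the first set and 6.38 ± 0.27 in 3 of the second on the log2(CPM + 1) scale. The share lower at settlement was 61.4% with those numbered 1 to 100 alone (20.5% of all gene models tested) and 59% with those numbered 101 to 124 alone (12.7% of all). The 559 gene models lower in larvae without the library labelled late ring replicate 7 gave similar shares, with 63.8% higher at cloud than at cleavage, 31.8% higher at ring than at cloud and 68.6% lower at settlement than at ring.

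Of the 414 lost gene models 241 were higher at cloud than at cleavage, 46 were lower, 109 were not called and 18 not tested. The 241 and the 46 stood differently in the late ring libraries. The comparisons that chose the 241 favour low values at cleavage and high values at late ring over larvae, so these levels are a description. The 241 that were higher at cloud than at cleavage averaged 4.12 at cleavage, 8.62 at ring, 7.43 at late ring, 6.02 in larvae and 5.56 in adults on the log2(CPM + 1) scale. In the late ring libraries they averaged 7.50, 8.37, 7.66, 8.42, 8.21, 6.63 and 5.24 for replicates 1 to 7. The library labelled late ring replicate 7 was thus below every larva, the larvae running from 5.60 to 6.33. Of these 241, 240 were tested between settlement and ring and 211 of them were lower at settlement (87.9%), compared with 52.2% of the 1031 gene models that were higher at cloud among all those tested.

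The 46 lost gene models that were lower at cloud than at cleavage behaved otherwise. They averaged 8.25 at cleavage, 5.56 at ring, 6.57 at late ring, 5.30 in larvae and 6.85 in adults. All 7 late ring libraries, replicates 6 and 7 included, lay between 5.97 and 6.87 for this group, and all 13 larvae lay between 4.93 and 5.60. Between settlement and ring 6 of the 42 tested were lower at settlement (14.3%), compared with 3.41% of the 791 gene models that were lower at cloud among all those tested. The comparisons that chose this smaller group favour high values at cleavage and late ring, and its levels are a description. The comparison of late ring with ring was not made here.

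**Figure D4:**
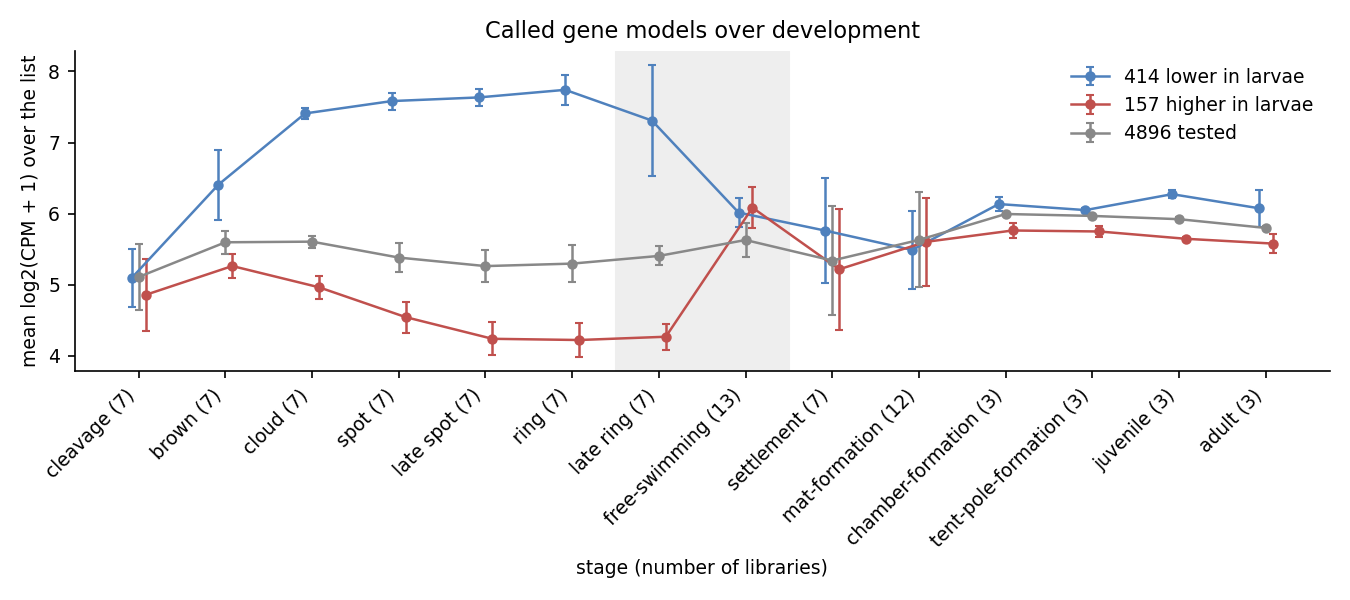
Mean log2(CPM + 1) over the lost (blue), the gained (red) and all gene models tested (grey) at each of the 14 stages in developmental order, mean ± SD over libraries of at least 100000 counts, with a grey band at late ring and free-swimming, the stages that chose the genes. The lost gene models lie between 7.41 and 7.74 from cloud to ring and at 6.27 or below in all stages after release, and the gained ones lie at 6.08 in larvae, against 4.27 at late ring.

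The gained gene models were not new to development. Their mean log2(CPM + 1) was 4.86 at cleavage, 5.26 at brown, 4.96 at cloud, 4.54 at spot, 4.24 at late spot, 4.22 at ring and 4.27 at late ring, then 6.08 in larvae, 5.22 ± 0.85 at settlement, 5.60 in the mat stage, 5.76 in the chamber stage, 5.75 in the tent-pole stage, 5.65 in juveniles and 5.58 in adults. The larva had the highest mean of the 14 stages, as the choice of these genes favours. Among the other stages, 68.2% of them were highest at settlement or later (57.5% of all tested), 24.8% at cleavage or brown (22.4% of all tested) and 7.01% between cloud and ring (20.1% of all tested). All 157 had counts in at least 1 late ring library, as had all 4896 gene models tested.

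The gained gene models were read in the same 3 comparisons of other stages. Between settlement and ring 23 of 127 tested were higher at settlement (18.1%) and 1 was lower, beside 9.86% and 18.6% of all gene models tested. With settlement libraries numbered 1 to 100 alone 29 of 69 were higher (42%, where 16.3% of all were), and with those numbered 101 to 124 alone 34 of 150 (22.7%, where 8.79% of all were). Of the 288 gene models higher in larvae without the library labelled late ring replicate 7, 65 of 238 tested were higher at settlement (27.3%) and 1 was lower. DESeq2 called 48 of 153 higher (31.4%), in a comparison where it called 20.9% of all higher. Between ring and cloud 2 of 134 were higher at ring and 13 were lower (9.7%), and between cloud and cleavage 25 of 138 were higher at cloud (18.1%) and 31 were lower (22.5%). The shares of all gene models tested were 8.9% higher and 8.22% lower at ring, and 22.8% higher and 20% lower at cloud.

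Among gained gene models of at least 50 CPM, Aqu2.1.02785_001 had the highest log2 fold change, 3.36 (SE 1.08, edgeR adjusted p = 0.0435). It had 0 CPM in larva 9, 15.1 CPM in the median larva and 885 CPM in larva 7, against 3.12 CPM in the lowest late ring library, 5.33 CPM in the median one and 19.8 CPM in the highest. The stages overlapped: 6 of 13 larvae were above every late ring library and the other 7 were within or under their range. Without larva 7 the log2 fold change was 2.29 and the call was lost (adjusted p = 0.0981). The call was also lost without larva 3, 4 or 5, without any of late ring replicates 2 to 6, and with the library total as a covariate (log2 fold change 1.32, adjusted p = 0.418). Larvae 7 and 5, with the highest and the next highest level at 885 and 264 CPM, were the shallowest libraries. The same gene model averaged 5.76 ± 2.34 CPM at ring and 463 ± 417 CPM at cloud (SD, n = 7 each).

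Aqu2.1.14181_001 had 0 CPM in larvae 8 and 9, 59.5 CPM in the median larva and 222 CPM in the highest. In late ring embryos it had 0 CPM in replicates 1, 3, 6 and 7 and reached 37.5 CPM in replicate 5. A count of 0 allowed up to 10.7 and 5.67 CPM in larvae 8 and 9, and 2.66 to 4.86 CPM in the 4 late ring libraries (3 counts of the library total, counting error only). The log2 fold change was 3.25 (SE 1.05, edgeR adjusted p = 0.0435), and 5.32 without late ring replicate 5. With DESeq2 (adjusted p = 0.0691), with the covariate (0.0595), in the single fit of all stages (0.0677) and with any 1 of 13 libraries left out, larvae 1, 4, 6, 10, 11, 12 and 13 and late ring replicates 1, 2, 3, 4, 6 and 7 (0.0518 to 0.0911), it was not called. Both of these gene models varied widely among larvae, and the call of each depended on single libraries.

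Other gene models separated the stages without overlap. All 13 larvae lay above all 7 late ring libraries for 8 of the gene models tested (0.163%), and below them for 5 (0.102%), and all 13 of these were called. Without the library labelled late ring replicate 7, 54 lay above (1.1%) and 32 below (0.654%). The most abundant of the 8 had 229 CPM in the lowest larva, 555 CPM in the median larva and 1335 CPM in the highest, against 31.3 CPM in the lowest late ring embryo, 73.2 CPM in the median one and 167 CPM in the highest. Its log2 fold change was 2.80 (SE 0.38, edgeR adjusted p = 2.92e-05). Of the 5, the one with the highest lowest late ring value had 65.4, 115 and 184 CPM in the lowest, median and highest larva, against 228, 303 and 622 CPM in late ring embryos, with a log2 fold change of -1.87 (SE 0.24, edgeR adjusted p = 2.23e-05). These gene models were picked after their values were seen.

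Most larvae carried most of the changes. For 237 of the 414 (57.2%) all 13 larvae lay below the late ring median, and for 330 at least 12 did. No lost gene model had fewer than 8 larvae below it. Over all gene models tested, all 13 larvae lay below the late ring median for 5.27%, and at least 12 did for 427 of the 4896. For 91 of the 157 gained gene models (58%) all 13 larvae lay above the late ring median, and for 135 at least 12 did. Among all gene models tested, all 13 lay above for 6.84%, and at least 12 did for 835 of the 4896. Both lists were chosen for such differences, and the shares say only how widely a change was carried among larvae.

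Spread was measured per gene model as the SD of log2(CPM + 1) over the libraries of a stage. The median SD over lost gene models was 0.70 in larvae and 1.07 in late ring embryos, and the SD was smaller in larvae for 303 of the 414 (73.2%). Over all gene models tested the medians were 0.85 in larvae and 0.82 in late ring embryos, with a smaller SD in larvae for 46.5%. For gained gene models the medians were 0.76 in larvae and 0.86 in late ring embryos, with a smaller SD in larvae for 79 of 157 (50.3%). These values depended on the library labelled late ring replicate 7. Without it the late ring median SD was 0.74 over lost, 0.71 over gained and 0.68 over all gene models tested, and the SD was smaller in larvae for 53.1% of the lost, 43.3% of the gained and 31.9% of all. Without replicates 6 and 7 the late ring median over lost gene models was 0.64, under the 0.70 of larvae. CPM + 1 ranged over more than 10-fold among larvae for 31.2% of the lost and 29.9% of the gained gene models, beside 40.1% of all tested, and among late ring embryos for 44.9% of the lost, 24.2% of the gained and 27.4% of all tested. Without the library labelled late ring replicate 7 the late ring shares were 21.5%, 13.4% and 14%, all below those of larvae, where more libraries also widen a range. The SDs and ranges were taken without thinning. The shallowest larva held 174505 counts and the shallowest late ring library 617279. The part of depth in these spreads was not tested.

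Per library, the distance from its stage was taken as the median over gene models of the absolute difference in log2(CPM + 1) from the median of the other libraries of the stage. Over the lost gene models it was 0.52 ± 0.07 in larvae (0.39 to 0.66) and 0.82 ± 0.44 in late ring embryos (0.50 to 1.78). Without the library labelled late ring replicate 7 the late ring value was 0.66 ± 0.16 (n = 6), and without replicates 6 and 7 it was 0.58 ± 0.08 (n = 5). The late ring mean was thus near the larval one once those 2 libraries were left out. Over the gained gene models the distance was 0.54 ± 0.10 in larvae and 0.60 ± 0.14 in late ring embryos, and over all gene models tested 0.57 ± 0.09 in larvae and 0.61 ± 0.19 in late ring embryos. On a log2(CPM + 10) scale the order over gained gene models turned, with 0.46 ± 0.09 in larvae and 0.37 ± 0.09 in late ring embryos. Over all gene models tested it turned without the library labelled late ring replicate 7, which gave 0.55 ± 0.05 in late ring embryos, and without replicates 6 and 7, which gave 0.53 ± 0.03. Over the lost gene models without replicates 6 and 7, the distance was lower in larvae while the median SD was higher in larvae. After thinning all libraries to the lowest total, the larval distance was 0.57 ± 0.05 over lost, 0.60 ± 0.08 over gained and 0.64 ± 0.08 over all. The late ring values were then 0.88 ± 0.47, 0.81 ± 0.15 and 0.76 ± 0.18, with all 7 libraries in.

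**Figure D5:**
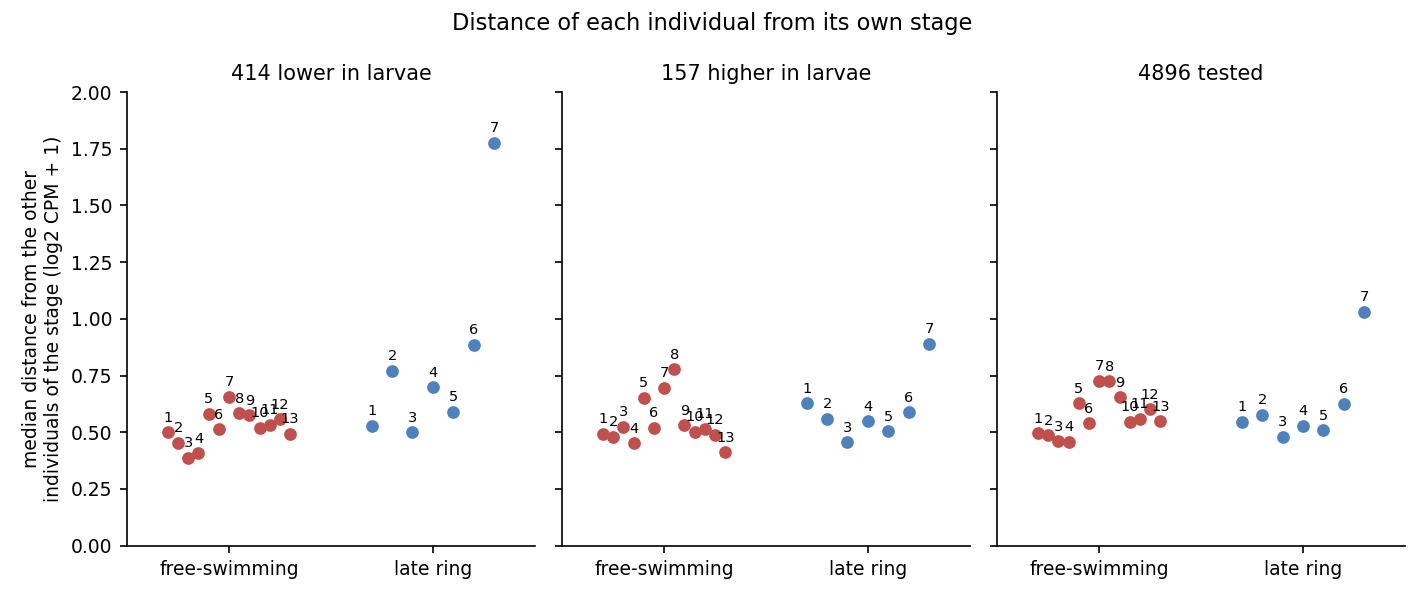
Distance of each library from the median of the other libraries of its stage, in log2 units, over the lost, the gained and all gene models tested, with larvae left of late ring embryos. The 13 larvae lie between 0.39 and 0.66 for lost gene models, and the library labelled late ring replicate 7 lies highest in each panel, at 1.78 for the lost ones.

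The larvae farthest from the others were larvae 7, 5 and 8, with distances over lost gene models of 0.66, 0.58 and 0.58, and these 3 were the shallowest larval libraries. With all libraries thinned to the lowest total, the larval distances over lost gene models ran from 0.49 to 0.66. Single larvae are not given at that depth, and the part of depth in their order was not tested. Without thinning, larvae 7 and 8 were farthest over all gene models tested, both at 0.73, and larva 4 nearest, at 0.46. The median Spearman correlation between pairs of larvae was 0.746 over the gene models tested (78 pairs, 0.615 to 0.825). It was 0.691 between larvae and late ring embryos (91 pairs), 0.778 within late ring (21 pairs, 0.562 to 0.835) and 0.792 within late ring without the library labelled replicate 7. These correlations are across genes of libraries that differ in depth, and the part of the lower larval depth in them was not tested.

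Some gene models varied among larvae without separating the stages. Aqu2.1.03895_001, the most variable one not called, was at 0 CPM in 7 of the 13 larvae and at up to 401 CPM in the others, against 0 CPM to 264 CPM in late ring embryos, with a median of 13.0 CPM. Its log2 fold change was 0.42 (SE 1.12, edgeR adjusted p = 0.856). Only 8 of the 4896 gene models (0.163%) were at 0 in at least 3 larvae and at 100 CPM or more in at least 3 others, 1 of them gained and 0 lost. The limit that a count of 0 allowed ran from 3.06 to 17.2 CPM among the larvae.

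The most abundant gene model of both stages, Aqu2.1.29497_001, was not among those called. It took 6.86% of the counts in the lowest larva, 11.7% in the median larva and 20.9% in the highest, against 6.74% in the lowest late ring embryo, 13.9% in the median one and 20.0% in the highest. The log2 fold change was -0.40 (SE 0.33, edgeR adjusted p = 0.485). The ranges of the stages overlapped almost wholly.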

How the data were processed

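The deposited table holds raw counts per gene model. Per the submitters' processing notes, CASAVA 1.8, Bowtie2 2.1.0 and HTSeq 0.5.4p3 were used. Not given in the sources used here are the genome build, the annotation, the strand setting and whether molecular identifiers were counted, and near-identical or overlapping gene models may share reads. The table was held in part: 1 incomplete row was left out and 36868 gene models were used. All 124 columns were mapped by embryo number, 0 were of other samples, and replicates were numbered in the order of accession. The 2 stages were fitted alone in R 4.3.3 with the two-sided quasi-likelihood test of edgeR 4.0.16 (TMM scaling, filterByExpr minimum count 10 and minimum total 15, adjusted p under 0.05), and checked on simulated data. DESeq2 1.42.0 was an alternative. CPM is the deposited count divided by the library total and multiplied by 1000000, and list levels are means of log2(CPM + 1) with a pseudocount of 1, for other stages in libraries of at least 100000 counts. Single values were compared by exact permutation tests. A count of 0 allows 17.2 CPM in the shallowest larva (174505 counts) and 4.86 CPM in the shallowest late ring library (617279 counts). Such limits cover counting error only. Figures and checks used Python 3.11.15.

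The identifiers matched 0 entries of the reference table, so 0 gene lists were applied and no sequence is shown. The gene models named are those with the 2 largest rises and the 2 largest drops among called ones with at least 50 CPM in the higher stage, the most abundant of each stage, and the most variable not called among larvae. The comparison and its lists were chosen with earlier results of these data known.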

Additional observations from a re-analysis of the deposited data

Results flagged for a closer look

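Among 36 sets of values, 9 had a sample that Dixon's criterion set apart. Chance gives about 1 in 20 when sets are independent and normally distributed. These sets share libraries and chosen gene models, and some are unlogged CPM, so that rate does not apply to them. Some sets were measures or gene models over the 7 late ring libraries. The rest were mean levels of the lost or the gained gene models within another stage. All 9 were late ring sets, so their share among late ring sets was higher than among the 36. The criterion was not applied to the 13 larvae. Of the 9, 6 concerned the library labelled late ring replicate 7. Its distance from its stage was 1.03 over all gene models tested, 1.78 over the lost ones and 0.89 over the gained ones, where the nearest late ring library had 0.63, 0.89 and 0.63. Its median correlation with late ring libraries was 0.620, and the next lowest was 0.753. For the 20 gene models with the largest gains among those of at least 50 CPM, it had a mean log2(CPM + 1) of 4.73 and 0.177% of its counts. The next highest late ring library had 3.80 and 0.0601%.

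The other 3 were single gene models. The level of Aqu2.1.02785_001 was 19.8 CPM in late ring replicate 1, and the next highest was 9.72 CPM. Aqu2.1.14181_001 had 37.5 CPM in late ring replicate 5, and the next highest was 8.00 CPM. Aqu2.1.01745_001 had 14410 CPM in late ring replicate 4, and the next highest was 2730 CPM.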

How the results depend on the processing

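The counts of gene models moved as follows, from 571 called, 157 higher and 414 lower in larvae. The number tested differed too, and was 4896 in the main fit. DESeq2 called 874 of 8881 tested (318 higher) with a median over all tested of 0.33 on the log2 scale. No filter called 865 of 23405 (687 lower) with a median of 0.2. The library total as covariate gave 305 of 4896 (73 and 232), libraries of at least 500000 counts 359 of 4784 (90 and 269) and thinning 337 of 2242 (220 lower). Chosen after seeing the data, leaving out late ring replicates 6 and 7 together gave 871 called, 303 of them higher, and leaving out the 2 shallowest larvae 473 called. With single libraries left out, 374 to 847 were called, 78 to 288 higher and 296 to 559 lower. In all of these fits every lost or gained gene model tested kept its direction, except 2 of the 414 lost ones without late ring replicates 6 and 7. The difference in log10 totals ran from -0.258 to -0.184 with single libraries left out, and in unlogged totals it was -340620 (exact permutation p = 0.0336). The difference in detected gene models ran from 501 to 814, was 603 at 50000 counts and 543 at 2 counts or more, and reversed to -417 without thinning (exact permutation p = 0.551). The share of the 50 most abundant reversed to -2.14 percentage points (p = 0.246). The cause was not tested. DESeq2 called 3911 gene models between cloud and cleavage and 3499 between settlement and ring, against 2552 and 1439 with edgeR. On a log2(CPM + 10) scale the distance was 0.42 in larvae for lost and 0.46 in larvae for all gene models. For gained ones it was 0.46 in larvae and 0.37 in late ring embryos, which turned the order. After thinning, the distance for gained ones was 0.60 in larvae and 0.81 in late ring embryos. For all gene models of at least 50 CPM it was 0.46 in larvae. Aqu2.1.03895_001 reversed to -0.075 without larva 12 (adjusted p = 0.978) and ranged up to 1.31 with other single libraries left out. Larval depth limits what can be read of gene models under 17.2 CPM. No paired analysis was possible because the labels give the stages no shared replicate numbers.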

Other observations

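Gene models of at least 100 CPM in 1 library and at least 10-fold above each of the other 19 libraries numbered 6 in the library labelled late ring replicate 7, which gave 0.470% of its counts, and 4 of them had their highest mean among other stages at cleavage or brown. Larva 5 had 3 such gene models, at 0.851% of its counts, and each of the other libraries had 0 to 2.

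The individual with no stage label, embryo number 36, had 23082 counts. Its mean log2(CPM + 1) was 3.64 over the lost and 3.37 over the gained gene models, and its closest stage was mat-formation, at a Spearman correlation of 0.237.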
